A study of Homo sapiens with 131 samples.

Results

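The outermost 3 Mb of human chromosomes were followed through mid S-phase in single HAP1 cells. A 40-kb bin belonged to a chromosome end when its start lay within 3 Mb of the start of the first or the last bin of its chromosome, on chromosomes 2, 3, 5, 6, 7, 9, 10, 11, 12, 16 and 20. This rule uses position alone and took 1478 of the 56881 bins of the table (2.60%), 723 in p ends and 755 in q ends. The other 36607 bins of the same 11 chromosomes are called interior bins. Each of the 22 ends held 23 to 76 bins, 11p having the fewest because the bins of chr11:360001-1320000 are not in the table. The outermost bin of an end lay between 0 bp (2p) and 565979 bp (6q) from the end of the hg38 chromosome.

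Human telomeres are tracts of short repeats, and they are bounded by subtelomeres that combine segmental duplications with gene-rich sequence. Replication timing is the order in which chromosome segments are copied during S-phase, and gene-rich, GC-rich, transcribed segments are in general copied before gene-poor ones. A fork that enters a chromosome end must finish it in 1 direction, because no origin lies beyond the telomere.

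HAP1 is a near-haploid human cell line derived from the leukemia line KBM-7, and it carries the Philadelphia translocation between chromosomes 9 and 22, so the sequence named 9q end below is not at the tip of an intact chromosome 9. The study separated genomic DNA from total RNA of the same sorted cell and sequenced both (scRR-seq). The labels list 63 mid-S cells with DNA and RNA libraries, and DNA of 5 cells in G1, of the same line and with no treatment named. Of these, 56 have columns in the tables, and 55 with a replication score (percent of called bins at 2 copies) of 40 to 70% were analysed, the remaining cell being at 39.7%. In a near-haploid cell a bin is at 1 copy before its replication and at 2 copies afterwards. The 55 cells came from 1 experiment, so each p-value measures the spread between these cells only. Read depth per bin is not in the DNA table, in which 96.7 to 99.6% of all bins of a cell had a call, and 92.8 to 99.7% of the terminal bins. The RNA tables held 9071 to 11344 genes at 1 TPM or more per cell, TPM being a level scaled to the length of the transcript and the total of the library. Cells numbered up to 65 (28 cells) and later ones (27 cells) form 2 sets that earlier work on these RNA libraries had told apart, and results are given within each set where they differed.

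The promoters of the genes with the most RNA in the 3 earliest (16p, 3q, 16q) and the 3 latest ends (3p, 2p, 11q) are shown as RefSeq gives them in GRCh38.p14, from 250 bases before to 50 after the start of the gene, 5′ to 3′ on the strand of the gene, with every CG dinucleotide in capitals.
SRRM2, 16p, chr16:2752388-2752687, plus strand: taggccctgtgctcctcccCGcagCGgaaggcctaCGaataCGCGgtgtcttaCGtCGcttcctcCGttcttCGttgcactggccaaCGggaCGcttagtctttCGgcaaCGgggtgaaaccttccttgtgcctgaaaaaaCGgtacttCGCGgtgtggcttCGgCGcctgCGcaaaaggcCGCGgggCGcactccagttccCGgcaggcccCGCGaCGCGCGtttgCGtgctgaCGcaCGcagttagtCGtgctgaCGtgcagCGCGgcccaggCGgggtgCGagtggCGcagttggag
RPL35A, 3q, chr3:197949940-197950239, plus strand: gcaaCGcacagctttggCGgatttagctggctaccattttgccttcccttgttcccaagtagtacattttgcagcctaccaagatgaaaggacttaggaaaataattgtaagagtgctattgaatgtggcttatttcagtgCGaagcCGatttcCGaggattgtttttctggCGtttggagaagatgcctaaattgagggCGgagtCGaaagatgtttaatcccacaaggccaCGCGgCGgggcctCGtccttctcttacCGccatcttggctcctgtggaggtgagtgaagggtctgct
RPL13, 16q, chr16:89560407-89560706, plus strand: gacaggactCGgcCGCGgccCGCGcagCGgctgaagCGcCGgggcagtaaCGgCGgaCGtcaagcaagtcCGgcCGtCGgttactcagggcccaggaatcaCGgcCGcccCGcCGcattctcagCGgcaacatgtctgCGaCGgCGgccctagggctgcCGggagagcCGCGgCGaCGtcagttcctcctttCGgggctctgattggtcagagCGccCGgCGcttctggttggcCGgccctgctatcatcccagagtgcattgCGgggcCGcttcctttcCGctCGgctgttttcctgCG
CHL1, 3p, chr3:197639-197938, plus strand: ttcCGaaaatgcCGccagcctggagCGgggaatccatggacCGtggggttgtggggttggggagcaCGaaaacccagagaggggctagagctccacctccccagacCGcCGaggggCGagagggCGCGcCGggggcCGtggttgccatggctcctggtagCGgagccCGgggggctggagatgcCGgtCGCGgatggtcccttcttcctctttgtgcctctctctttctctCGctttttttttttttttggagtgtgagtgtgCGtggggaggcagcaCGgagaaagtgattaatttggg
ACP1, 2p, chr2:264697-264996, plus strand: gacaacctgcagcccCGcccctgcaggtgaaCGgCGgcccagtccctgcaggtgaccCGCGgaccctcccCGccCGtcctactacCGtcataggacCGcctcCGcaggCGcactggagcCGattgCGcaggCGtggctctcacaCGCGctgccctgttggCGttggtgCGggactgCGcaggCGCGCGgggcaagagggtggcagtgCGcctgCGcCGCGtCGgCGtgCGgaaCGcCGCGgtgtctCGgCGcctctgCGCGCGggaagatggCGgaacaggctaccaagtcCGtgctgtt
NCAPD3, 11q, chr11:134225412-134225711, minus strand: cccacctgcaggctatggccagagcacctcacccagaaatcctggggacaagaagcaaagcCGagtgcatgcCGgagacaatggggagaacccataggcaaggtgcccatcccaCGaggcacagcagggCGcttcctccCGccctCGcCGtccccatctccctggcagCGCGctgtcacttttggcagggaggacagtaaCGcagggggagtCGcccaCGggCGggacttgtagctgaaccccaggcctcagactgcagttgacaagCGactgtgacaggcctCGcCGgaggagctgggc
SRRM2 encodes a nuclear speckle scaffold of the spliceosome, RPL35A and RPL13 encode proteins of the large ribosomal subunit, CHL1 a neural cell adhesion molecule, ACP1 a low molecular weight phosphotyrosine phosphatase, and NCAPD3 a subunit of the condensin II complex. The 3 promoters at early ends held 38 (SRRM2), 13 (RPL35A) and 37 (RPL13) CG dinucleotides, and those at late ends 20 (CHL1), 39 (ACP1) and 16 (NCAPD3), which overlap. The median over all 35116 promoters of the table was 14, and over the 881 promoters matched to genes of the ends it was 28. At least 1 CG was present in 96% of all promoters and in 99.9% of those of the ends.

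The terminal bins were slightly ahead of the interior. Among the 55 cells 33.4% (lowest), 57.2% (median) and 71.7% (highest) of the called terminal bins were at 2 copies, against 40.4%, 54.7% and 67.8% of the interior bins, and the ranges overlapped almost entirely. Within a cell the terminal bins were higher in 41 cells and lower in 14, with means of 56.6% ± 7.71 and 54% ± 8.06 (SD, n = 55 cells, as for all values below unless stated). The difference of 2.59 ± 4.70 percentage points was larger than the spread between cells allows for (sign-flip permutation test, two-sided, p = 0.00024), and it was 2.53 points in the first set of cells and 2.65 points in the later one. It rested on chromosome 16, without which it was -0.52 points (permutation p = 0.444). It also depended on the width of the window and was -4.64 points when an end was taken as 5 Mb (permutation p = 1e-05, the smallest the 100000 permutations can give).

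In terms of single bins, 610 of the 1478 terminal bins (41.3%) were at 2 copies in over 80% of the called cells, where 35% of all bins were, and 347 (23.5%) were at 1 copy in over 80% of the cells, where 27% of all bins were. The other 35.3% were mixed. Calls were missing for 2.2% of the terminal bin values and 0.491% of the interior ones, and restricting the comparison to bins called in at least 80% of cells left its direction and its call as they were.

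The average hid ends of very different timing. Ordered by their mean share of bins at 2 copies, the ends ran from 16p at 92.3% ± 8.14 to 11q at 12.4% ± 13, a range nearly as wide as that of 493 windows of 3 Mb cut from the interior of the same chromosomes, whose means lay between 0.128% and 99.6%. The SD of the level was 26.2 points over the 22 ends and 27.5 points over the interior windows. At 16p (chr16:80001-3120000) no cell had under 71.7% of its bins at 2 copies, at 3q (chr3:195000001-198040000) the cells lay between 58.2 and 100% with a median of 94.5%, and at 16q (chr16:87000001-90040000) between 37.8 and 100% with a median of 91.5%. At the other extreme, 11q (chr11:131720001-134760000) lay between 0 and 50% with a median of 10.5%, 2p (chr2:1-3040000) between 0 and 42.1% with a median of 13.6%, and 3p (chr3:40001-3080000) between 0 and 64.5% with a median of 22.4%. The cells of 16p and those of 11q or 2p did not overlap.

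**Figure D1:**
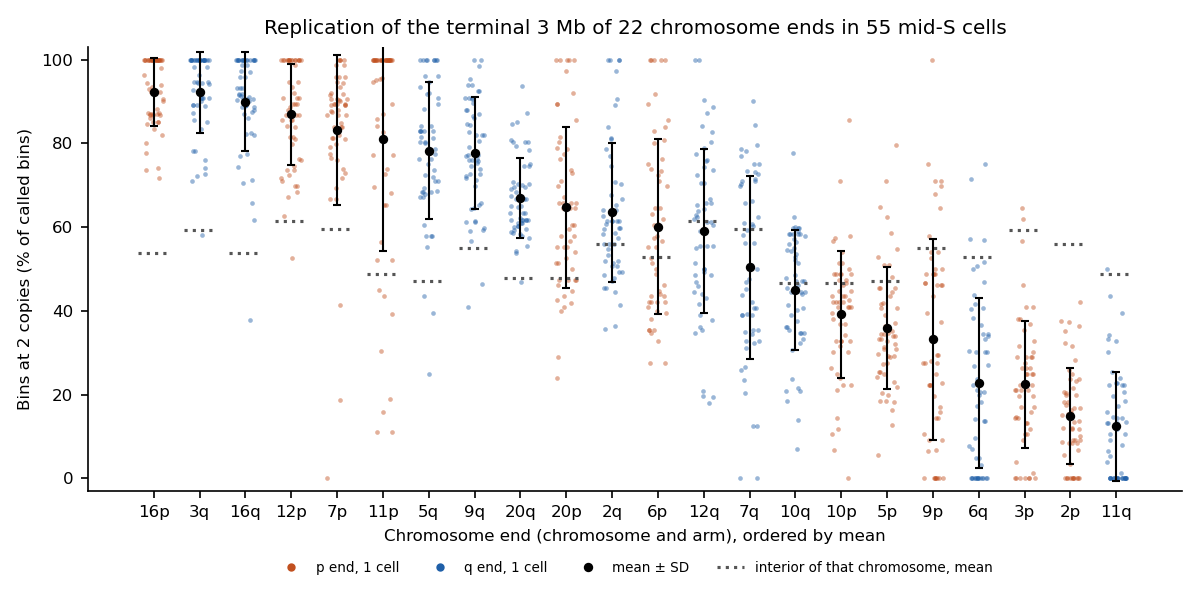
Percent of called bins at 2 copies in the terminal 3 Mb of each of 22 chromosome ends (x axis, ordered by mean), with 1 point per cell, black mean ± SD over 55 cells and a dotted line at the mean of the interior of that chromosome. The points of 16p, 3q and 16q lie far above their dotted lines, with means of 92.3, 92.2 and 90.0%, and those of 3p, 2p and 11q far below, with means of 22.4, 14.8 and 12.4%.

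Between these extremes the mean shares were 86.9% at 12p, 83.2% at 7p, 81% at 11p, 78.3% at 5q, 77.6% at 9q, 66.9% at 20q, 64.7% at 20p, 63.5% at 2q, 60.1% at 6p, 59.1% at 12q, 50.4% at 7q, 44.9% at 10q, 39.2% at 10p, 35.9% at 5p, 33.2% at 9p and 22.8% at 6q. Most neighbours in this order could not be told apart. Of the 21 neighbouring pairs 17 did not differ beyond the spread between cells, and the steps that did were from 9q to 20q, from 12q to 7q, from 9p to 6q and from 3p to 2p (sign-flip permutation test, Benjamini-Hochberg adjusted over the 21 pairs, adjusted p = 0.00021, 0.0269, 0.0254 and 0.0269).

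Against the interior of its own chromosome, 12 of the 22 ends were higher and 8 were lower, and 2 ends (12q and 10q) did not differ at an adjusted p of 0.05. Over all 40 ends of the 20 chromosomes of the table, among them the first bins of acrocentric q arms, the shares called higher and lower were 57.5% and 37.5%, so that the counts among the 22 ends (12 and 8) were close to this background. The largest excess was at 16p, 38.6 points above its chromosome in 55 of 55 cells, followed by 16q with 36.2 points in 54 cells. The largest deficit was at 2p, 41 points in the other direction (14.8% against 55.9% in the interior) in 55 of 55 cells, and 3p also lay below its interior in every cell (22.4% against 59.4%). Both ends of chromosomes 16 and 20 were above their interior, and no chromosome had both ends called below it.

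The SD over cells was lowest at 16p (8.14 points) and 20q (9.50) and highest at 11p (26.8) and 9p (24), the 11p value resting on 23 bins. A share near 0 or 100% has little room to vary, and 16p was at 100% in 23 cells. In 1011 of the 1210 combinations of an end and a cell (83.6%) the end held bins of both states, in 135 (11.2%) it was wholly at 2 copies and in 64 (5.29%) wholly at 1 copy. The wholly replicated cases were most frequent at 11p (27 cells), 16p (23 cells) and 3q (22 cells), and the wholly unreplicated ones at 11q (20 cells), 6q (14 cells) and 2p (11 cells). The interior windows were wholly at 2 copies in 15.7% and wholly at 1 copy in 7.69% of their combinations, a difference that was not tested.

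**Figure D2:**
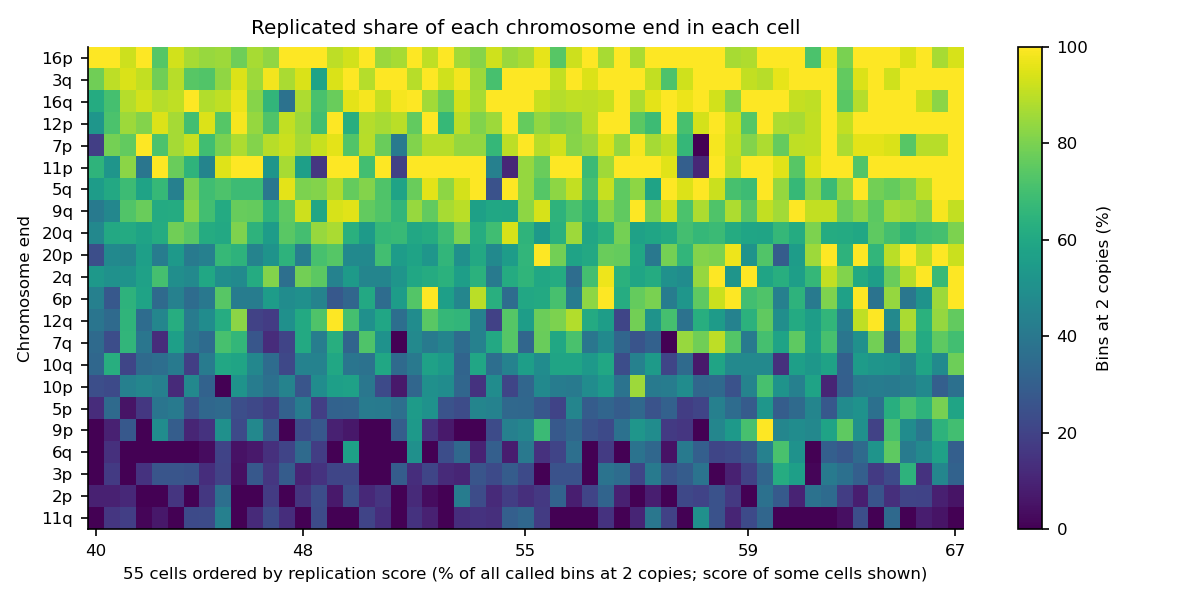
Percent of bins at 2 copies (colour, 0 to 100%) for each of 22 chromosome ends (rows, ordered by mean) in each of 55 cells (columns, ordered by replication score from 40 to 67%). The row of 16p is high in every cell, the bottom rows of 2p and 11q hold low values up to the highest scores, and most other rows change along the cells.

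Ends gained replicated bins with the interior, at their own pace. Across the 55 cells the terminal share followed the interior share of the same chromosomes with a slope of 0.787 points per point (Pearson r = 0.823, Spearman rho = 0.827, and r = 0.807 without the 2 cells farthest from the median), values that describe shares taken from the same libraries and are given without a test. For single ends Pearson's r lay between -0.058 (11q) and 0.643 (20p). The slope was 1.69 at 9p, 1.59 at 6q and 1.53 at 20p, and it was 0.157 at 16p, 0.135 at 20q and -0.0938 at 11q. At 16p the low slope went with bins that were nearly all at 2 copies. At 20q it went with 37 bins at 2 copies in over 80% of cells beside 13 at 1 copy in over 80%. At 11q 57 of the 76 bins (75%) were at 1 copy in over 80% of cells, and the share of a cell reached up to 50%.

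The p and q ends differed in level by less than the ends differed among themselves. In the cells the p ends were at 26.9% (lowest), 53.1% (median) and 73.8% (highest) and the q ends at 39.6%, 60.3% and 74.8%, and these ranges overlapped. The q ends were higher in 41 cells and the p ends in 13, with means of 53.9% ± 8.86 (p) and 59.1% ± 7.94 (q) and a difference of -5.19 ± 6.71 points (sign-flip permutation test, p = 1e-05). This result turned on which chromosomes were counted. It was 1.22 points without chromosome 3 (permutation p = 0.209), and without chromosome 2, 5 or 9 it was -1.18, -1.52 or -0.971 points (permutation p = 0.263, 0.106 and 0.283). The interior of the p arms was lower than that of the q arms too, with a difference of -6.48 points, in 55 of 55 cells (49.7% ± 8.50 against 56.2% ± 7.94). In this value part of the p arm of chromosome 6 is counted with the q arms, for the reason given below, and it was not recomputed with another division.

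Set against the interior of its own arm, the p ends were 4.25 ± 5.56 points higher (43 of 55 cells) and the q ends 2.96 ± 6.02 points higher (41 of 55 cells). The difference between these effects, 1.29 ± 6.73 points, did not pass the test (sign-flip permutation test, p = 0.160). It moved from -4.82 points without chromosome 11 to 9.81 points without chromosome 3. Arms were divided at the longest run without bins, which on chromosome 6 lies at chr6:28520001-33520000 on the p arm, and dividing that chromosome at its second-longest run gave 1.18 points (permutation p = 0.203).

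Within chromosomes the direction split evenly. The p end was the higher one on chromosomes 6, 7, 11 and 12, by 27.8 points (12) to 68.6 points (11), and the q end on chromosomes 2, 3, 5 and 9, by 42.4 points (5, in 54 of 55 cells) to 69.7 points (3, in 55 of 55 cells). No difference was called on chromosomes 10, 16 and 20, where it was -5.78 ± 21.4, 2.40 ± 14.2 and -2.22 ± 20.2 points (sign-flip permutation test, adjusted over the 16 chromosomes with both arms, adjusted p = 0.0585, 0.236 and 0.418). Over those 16 chromosomes the p end was called higher on 43.8% and the q end on 37.5%, and the 4 and 4 of 11 counted here are close to that.

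Pooled over the bins of the 22 ends, the share fell inward from the tip. The outer Mb was at 2 copies in 39.2% (lowest), 71.3% (median) and 89.1% (highest) of its bins, the middle Mb in 36.8%, 58.0% and 72.3%, and the inner Mb in 25.7%, 43.6% and 61.1%. The pooled mean thus stepped from 70.9% ± 8.46 over 57.7% ± 7.93 to 43.6% ± 8.79. The outer Mb exceeded the inner one in 55 of 55 cells, by 27.3 ± 6.97 points (sign-flip permutation test, p = 1e-05), a comparison chosen after the profile had been seen. The outer Mb was above the interior of the 11 chromosomes by 17 points (54 of 55 cells) and the inner Mb below it by 10.4 points (54 of 55 cells), each with a permutation p of 1e-05. Leaving out each chromosome in turn kept the outer-to-inner difference between 21.4 and 33.8 points. Split by arm, the mean of the q ends fell at both steps, from 76.1% ± 10.4 over 67.9% ± 6.45 to 36.6% ± 11.4. That of the p ends fell from 65.6% ± 9.34 to 46.4% ± 12.1 and was 50.5% ± 8.97 in the inner Mb. The fall from the outer to the inner Mb was thus larger in the q ends, a difference that was not tested.

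**Figure D3:**
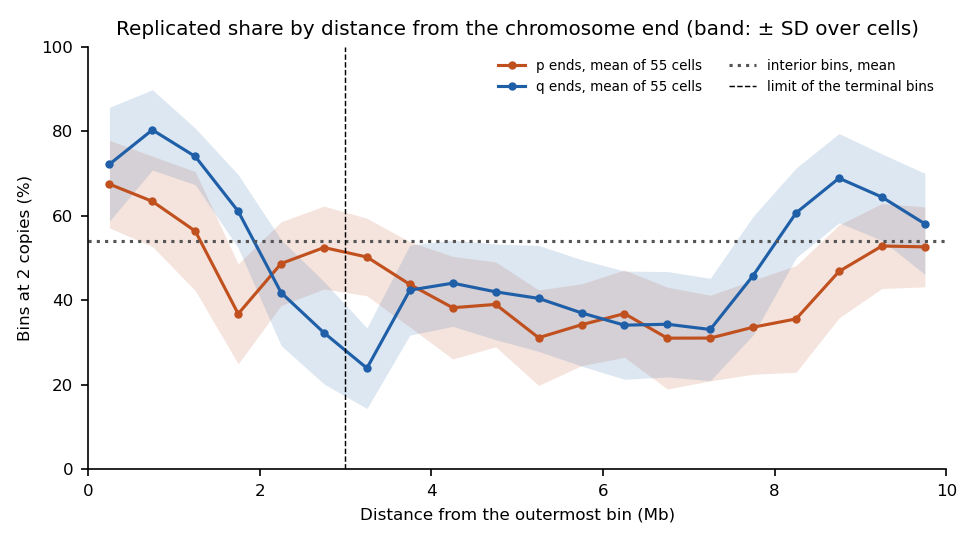
Percent of bins at 2 copies (y axis) in steps of 0.5 Mb from the outermost bin to 10 Mb inward (x axis), for the p and the q ends of 11 chromosomes, with the mean of 55 cells as points and ± SD over cells as bands. Both lines start above the dotted interior mean of 54%, fall below it and rise again beyond 8 Mb.

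Farther in, the share was low up to 8 Mb and rose again beyond. At the p ends it was 67.5% ± 10.4 in the first 0.5 Mb, 36.8% ± 11.9 between 1.5 and 2 Mb, 52.5% ± 9.82 between 2.5 and 3 Mb and 31.1% ± 11.3 between 5 and 5.5 Mb. At the q ends it was 72.2% ± 13.5 in the first 0.5 Mb and 80.4% ± 9.51 in the next, fell to 23.9% ± 9.54 between 3 and 3.5 Mb and was back at 68.9% ± 10.6 between 8.5 and 9 Mb. The bins from 3 to 10 Mb together were at 42.4% ± 8.39, which the terminal 3 Mb exceeded by 14.2 ± 5.36 points in 54 of 55 cells (sign-flip permutation test, p = 1e-05), and those over 10 Mb from both ends were at 55.3% ± 8.13. The excess of the terminal bins was thus 14.2 points over the sequence next to them and 2.59 points over the interior as a whole. The comparison with the bins from 3 to 10 Mb was not among the planned ones. It takes in the low stretch of the profile, and it was not recomputed without single chromosomes.

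By the mean over cells, the outer Mb was above the inner one at 19 of the 22 ends. Over all ends of the table with both values it was so at 66.7%, with 7 of the 17 other ends among them, and no test of single ends was made. The other ends include the first bins of the acrocentric chromosomes 13, 14 and 22. Those bins do not lie at a chromosome tip, and in them the inner Mb was the higher one, which lowers both shares. The outer Mb was higher in over 80% of cells at 7 of the 22 ends. At 20p the difference was 2.43 ± 24.4 points, with the outer Mb higher in 24 cells and the inner Mb in 21, and at 2p it was 8.04 ± 27.7 points, with 28 and 16 cells. The mean fell at both steps, from the outer over the middle to the inner Mb, at 10 of the 22 ends, and at 20p it went from 83.3% over 29.1% to 80.9%. At 6 ends the mean of the outer Mb was over 50 points above that of the inner Mb, namely at 10q (84.6% against 1.05%), 20q (98.2% against 16.8%), 10p (83% against 2.87%), 5p (91.8% against 14.2%), 2q (96.7% against 21%) and 12q (75.3% against 21.5%). The outer Mb of 10q and of 20q was higher in 55 of 55 cells. These ends held an early outer and a late inner Mb, and their 3-Mb means stood between 35.9% (5p) and 66.9% (20q). The inner Mb was the higher one at 6p, whose outer Mb was at 35.3% and inner Mb at 96.6%, at 9p (26.6% against 50.9%) and at 6q (24.7% against 35.1%). At 11p the outer Mb held only 2 bins.

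**Figure D4:**
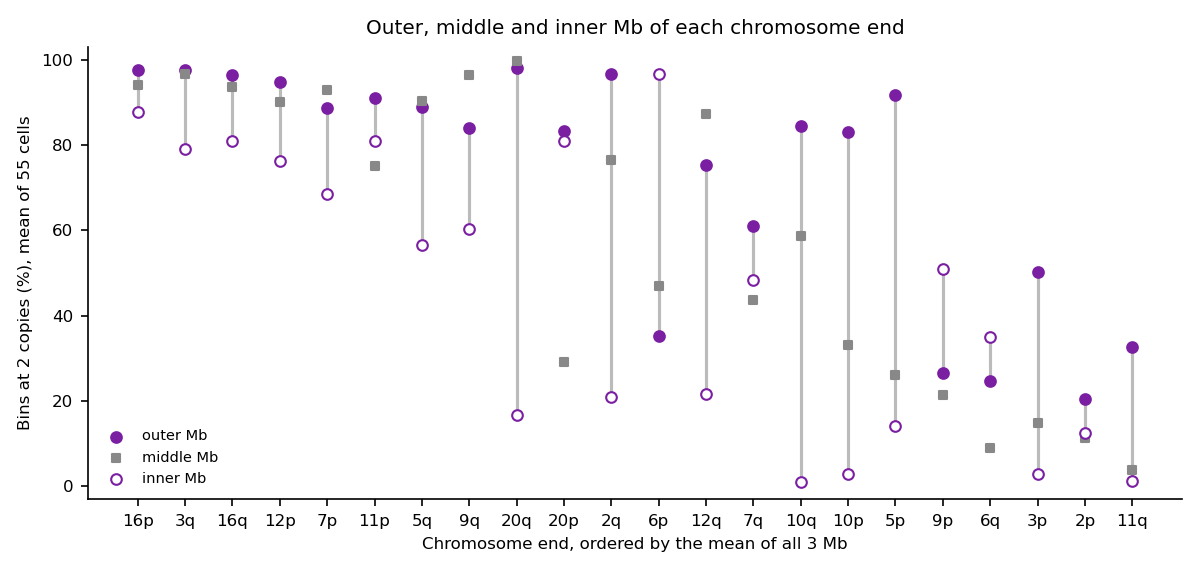
Mean percent of bins at 2 copies over 55 cells (y axis) in the outer Mb (filled circles), middle Mb (squares) and inner Mb (open circles) of each of 22 ends (x axis, ordered by the mean of all 3 Mb). The filled circle is above the open one at 19 ends, by more than 50 points at 20q, 2q, 12q, 10q, 10p and 5p, and below it at 6p, 9p and 6q.

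The terminal bins differed from the interior in sequence and gene content. Their GC content was 47.6% against 40.4%, CG dinucleotides numbered 18.8 and 9.10 per kb, and gene models 29.1 and 18.6 per Mb, of which 11.6 and 6.18 per Mb were protein-coding. Gene content also fell inward. From the outer over the middle to the inner Mb there were 33.5, 30.4 and 24.3 genes per Mb, and 11.3, 8.07 and 5.74 expressed genes per Mb (TPM above 0 in over 50% of cells). GC content changed less, from 48.1% over 48.4% to 46.5%.

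Within each class of GC content the ends were behind the interior. In bins of under 40% GC the terminal ones were at 37.1% ± 10.9 and the interior ones at 45.5% ± 8.72. In bins of 40 to 45% GC the values were 40.8% ± 8.88 and 59.3% ± 8.38, and the interior was higher in 55 of 55 cells. In bins of 45 to 50% GC they were 55.5% ± 8.78 and 69.5% ± 8.53, again with the interior higher in every cell, and in bins of 50% GC or more they were 76.4% ± 7.31 and 84.6% ± 6.09, with the interior higher in 53 cells. The 4 differences, of -8.43, -18.5, -14.0 and -8.17 points, each had a sign-flip permutation p of 1e-05, and these groups were chosen after the values had been seen. The direction in every GC group was thus opposite to that over all bins, while 35.5% of the terminal bins but 4.53% of the interior bins had 50% GC or more.

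**Figure D5:**
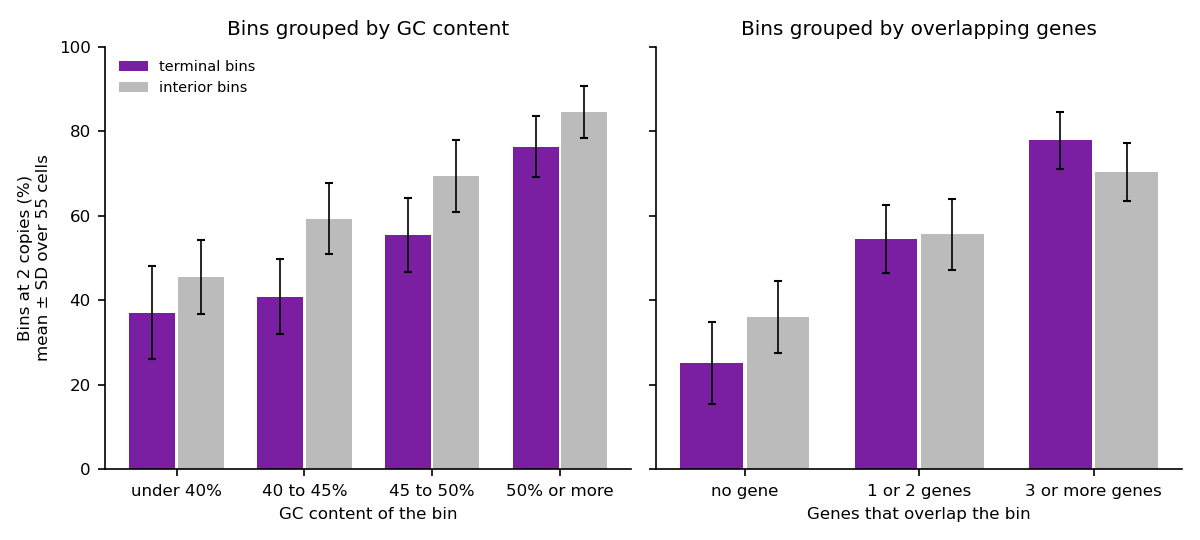
Percent of bins at 2 copies (y axis, bars are means and whiskers ± SD over 55 cells) for terminal and interior bins grouped by GC content (left) and by the number of genes that overlap the bin (right). The terminal bar is lower in all 4 GC groups and in bins without a gene (25.2% against 36.1%), and higher in bins with 3 or more genes (77.9% against 70.4%).

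By gene content the direction depended on the group. Bins without a gene were at 25.2% ± 9.71 in the ends (191 bins) and 36.1% ± 8.54 in the interior, the interior being higher in 53 of 55 cells (permutation p = 1e-05). Bins with 1 or 2 genes were at 54.5% ± 8.11 and 55.6% ± 8.36, a difference of -1.16 ± 4.87 points that did not pass the test (permutation p = 0.082). Bins with 3 or more genes were at 77.9% ± 6.79 in the ends (379 bins) and 70.4% ± 6.92 in the interior, the ends being higher in 52 of 55 cells (permutation p = 1e-05). That group has no upper limit, and gene numbers within it were not matched. Neither the GC nor the gene groups were recomputed without chromosome 16, on which the excess over all bins rested.

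Over the 22 ends, those with more genes had a higher share of bins at 2 copies. Spearman's rho of the mean share with protein-coding genes per Mb was 0.81, with expressed genes per Mb 0.79 and with GC content 0.55, while with the median TPM of the expressed genes of an end it was -0.04. These describe 22 ends of 1 cell line, whose features are tied to each other, and are given without a test. The extremes were 16p with 46.3 protein-coding genes per Mb and 57% GC, and 3p with 0.987 and 37.2%.

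The genes of the ends numbered 1722, 683 of them protein-coding. In each cell 24.9% (lowest), 27.8% (median) and 30.5% (highest) of them were at 1 TPM or more, against 19.4%, 21.7% and 24.5% of the 27304 interior genes, and the ranges did not overlap. The means were 27.7% ± 1.46 and 21.8% ± 1.18, and the difference of 5.99 ± 0.835 points was positive in 55 of 55 cells (sign-flip permutation test, p = 1e-05). Among protein-coding genes alone it was 4.54 ± 1.81 points, from 56.7% ± 2.31 against 52.2% ± 2.77, also in 55 of 55 cells. In the first and the later set of cells the difference over all genes was 6.34 and 5.62 points.

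The level of the expressed genes differed little. The median of log10(TPM + 1) over the 486 expressed genes of the ends was 1.2 (lowest), 1.36 (median) and 1.47 (highest) in the cells, and that of the 6092 of the interior 1.23, 1.32 and 1.36. The mean difference on the log10(TPM + 1) scale was 0.0424 ± 0.0533, with the ends higher in 46 of 55 cells (sign-flip permutation test, p = 1e-05). It was 0.0706 in the first set and 0.0132 in the later set, where it did not pass the test (permutation p = 0.075). Expressed genes of the ends spanned a median of 21677 bp, those of the interior 36842 bp.

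The 10 genes of the ends with the highest median spliced RNA lay at 9 ends, and 9 of them were at 2 copies in most cells. That is close to the genes of the ends in general. Of all 1722, 1065 were at 2 copies in over 80% of the called cells, and the median share was 90.6%. RPS21, a protein of the small ribosomal subunit at 20q, had 1868 (lowest), 2856 (median) and 4691 TPM (highest) and was at 2 copies in 100% of the called cells. RPL13 at 16q had a median of 996 TPM and HNRNPH1, an RNA-binding splicing factor at 5q, one of 922 TPM, and they were at 2 copies in 96.4 and 94.5% of cells. SEPTIN2, a cytoskeletal GTPase (2q, 539 TPM), RPL35A (3q, 526 TPM), SRRM2 (16p, 483 TPM), CANX, a chaperone of the endoplasmic reticulum (5q, 402 TPM), NOP56, a core protein of box C/D snoRNPs (20p, 367 TPM) and TUBB4B, a beta-tubulin (9q, 268 TPM) were at 2 copies in 92.7 to 100% of cells. The exception was RAN at 12q, the GTPase that drives nuclear transport, with 882 (lowest), 1670 (median) and 3086 TPM (highest) and at 2 copies in 25.5% of cells.

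The genes were also followed by function, on lists written with earlier results of these data known. Of 17 genes of genome maintenance found in the ends all were expressed, and 12 were at 2 copies in over 80% of the called cells. RNF168, a ubiquitin ligase of the response to DNA breaks (3q), and RTEL1, a helicase that acts at telomeres (20q), were at 2 copies in 100% of cells with medians of 15.6 and 19.4 TPM. DTYMK, the thymidylate kinase (2q), was at 2 copies in 98.1% of cells with 207 TPM, FANCA of the Fanconi anemia pathway (16q) in 92.7% with 171 TPM, and POLE, the catalytic subunit of DNA polymerase epsilon (12q), in 87.3% with 68.8 TPM. The lowest share in this group was 52.7%, at NCAPD3 (11q, 79.2 TPM). Over all 1722 genes of the ends 1065 were at 2 copies in over 80% of the called cells and 159 in under 20%. Of these 1722 genes 28.2% were expressed, and of the protein-coding ones 60.5%.

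Of 15 genes of translation, RNA and protein turnover all were expressed and 12 were at 2 copies in over 80% of cells, RAN, PHF10 (a chromatin remodelling subunit at 6q, 23.1% of cells, 88.9 TPM) and PSMF1 (a proteasome inhibitor at 20p, 36.4% of cells, 86.9 TPM) being the others. Of 11 genes of metabolism and membrane traffic all were expressed and 8 were at 2 copies in over 80% of cells. Beside both lists, 60.5% of the protein-coding genes of the ends were expressed, and 1065 of all 1722 genes were at 2 copies in over 80% of cells. SDHA, a subunit of succinate dehydrogenase (5p), was at 2 copies in 94.2% of cells with 246 TPM, and ACP1 (2p) in 5.45% of cells with 165 TPM. The RNA of ACP1 lay within the range of the replicated genes of this list, although most cells had not yet replicated it.

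Of 28 developmental and tissue-restricted genes 11 were expressed, 9 were at 2 copies in over 80% and 6 in under 20% of cells. Among all 1722 genes of the ends these counts were 486, 1065 and 159, and 60.5% of the protein-coding ones were expressed. The alpha-globin cluster at 16p was at 2 copies in 97.9 to 98.0% of cells, and HBA1, HBA2, HBZ and HBM each had a median of 0 TPM, with the reads of HBA1 and HBA2 hard to assign because the genes are nearly identical. GATA5, a transcription factor of heart and endoderm at 20q, had 0 TPM as its median and was at 2 copies in 100% of cells. SMOC2 (6q) and MYT1L (2p), a neuronal transcription factor, were at 2 copies in no called cell, with medians of 0 and 2.02 TPM. Replicated stretches thus included genes with a median of 0 TPM, and MYT1L was expressed at 1 copy.

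The expressed gene nearest to the outermost bin was centred between 1.43 kb (MPG, 16p) and 525 kb (PHF10, 6q) inward. MPG, a DNA glycosylase of base excision repair at 16p, was centred 1.43 kb from the edge of the first bin, was at 2 copies in 97.7% of cells and had 16.1 TPM. D2HGDH, a mitochondrial dehydrogenase at 2q, was centred 8.29 kb from the edge, was at 2 copies in 96.3% of cells and had 24.2 TPM. At the latest ends SH3YL1 at 2p (242 kb inward) was at 2 copies in 5.45% of cells with 29.5 TPM, B3GAT1 at 11q (365 kb inward) in 22.6% with 1.02 TPM, and CHL1 at 3p (263 kb inward) in 76.4% with 19.6 TPM. CHL1 was the only expressed gene of the 3p end, and its bins were ahead of that end's mean of 22.4%.

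Copy state and spliced RNA were compared between cells at 97 genes of the ends that were expressed and of mixed state. The gene was called (rank-sum test, p under 0.05) higher at 2 copies in 3 cases (3.09%) and higher at 1 copy in 2 cases (2.06%), where over all 2455 genes tested 5.82% and 2.73% were. No gene of the ends passed adjustment over all genes (lowest adjusted p = 0.391, rank-sum test, Benjamini-Hochberg), nor did any gene of the table (lowest 0.234).

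CHL1 had 0 (lowest), 28.1 (median) and 125 TPM (highest) in 42 cells at 2 copies and 0, 3.37 and 32.9 TPM in 13 cells at 1 copy (permutation p = 0.00676). ZNF84, a zinc finger gene at 12q, had a median of 23.3 TPM in 28 cells at 2 copies and 9.09 TPM in 26 at 1 copy (permutation p = 0.018). SMARCA2, an ATPase of the SWI/SNF chromatin remodelling complex at 9p, had medians of 44.8 TPM (22 cells) and 10.1 TPM (30 cells), with 3 and 10 of these cells at 0 TPM (permutation p = 0.0302). GLB1L2 at 11q was lower at 2 copies, with medians of 23.5 TPM (14 cells) and 37.2 TPM (37 cells, permutation p = 0.0192), as was WDR27 at 6q with 39.0 TPM (13 cells) and 54.2 TPM (41 cells, permutation p = 0.0234). For each of these genes the values of both states overlapped. The call of WDR27 was lost in 3 alternatives, with values less the mean of the set of cells, on residuals on the score and in cells scored 45 to 65% (Wilcoxon rank-sum test, p = 0.0931, 0.0686 and 0.0725). That of SMARCA2 was lost on the residuals (p = 0.173, rank-sum test) and that of GLB1L2 in cells scored 45 to 65% (p = 0.127, rank-sum test). CHL1 and ZNF84 kept theirs in every alternative in which they were tested.

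The genes next in order did not pass the test. TRIP13, an ATPase of the spindle checkpoint at 5p, stood at a median of 105.8 TPM where replicated and 82.2 TPM where not (permutation p = 0.0554), and FKBP1A, a peptidyl-prolyl isomerase at 20p, 187 and 155 TPM (permutation p = 0.0692). VPS26B, a retromer subunit at 11q, had 20.4 TPM in replicated and 37.2 TPM in unreplicated cells (permutation p = 0.0551), TMEM74B at 20p 1.75 and 6.64 TPM (permutation p = 0.0593), and PGP, phosphoglycolate phosphatase at 16p, 14.4 and 19.4 TPM (permutation p = 0.0652). The median was higher in the replicated cells for 49 of the 97 genes (50.5%) and in the unreplicated cells for 48. Over all 2455 genes tested it was higher in the replicated cells for 1384 (56.4%) and in the unreplicated ones for 1070. The difference between these shares was not tested.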

How the data were processed

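DNA and RNA of single mid-S HAP1 cells were taken from the deposited tables. The authors aligned DNA reads to hg38 with BWA 0.7.17-r1188 (version per the submitters' processing notes), corrected 40-kb bins with G1 cells, left out blacklisted bins and chromosomes 1, 15 and X, and called each bin or gene 2-copy, 1-copy or no call. The deposited RNA values are spliced TPM. The expected count values of unspliced RNA were made by the authors as reads over the gene body less those over exons, with negative results set to 0. Gene-level TPM without splicing was not used. Genes were placed by their midpoint, and cells were matched by the number in their titles. Shares per cell were compared by two-sided sign-flip permutation (100000 resamples), which keeps the cell as the block, and genes by the rank-sum test on TPM (scipy 1.17.1, numpy 2.4.6, pandas 2.3.3, Python 3.11.15), with Benjamini-Hochberg adjustment. The statistics were tested on simulated data. Named genes were those of the ends that were nearest to the outermost bin, highest in RNA, in 4 lists, or the 5 with the lowest copy-state p in each direction. Members and lists were chosen with earlier results of these data known.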

Additional observations from a re-analysis of the deposited data

Results flagged for a closer look

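Effects were compared between the 28 cells numbered up to 65 and the 27 later ones for 6 measures of the ends, and those of RNA differed. The excess of terminal over interior genes at 1 TPM or more was 6.34 ± 0.817 points in the first set and 5.62 ± 0.698 points in the later one, 0.713 points apart (two-sided permutation of the set, p = 0.00104, adjusted over the 6 measures p = 0.00312). The excess in the median RNA of expressed genes was 0.0706 ± 0.0518 and 0.0132 ± 0.0372 on the log10(TPM + 1) scale, 0.0573 apart (permutation p = 4e-05, adjusted p = 0.00024). The 4 measures of copy state did not differ between the sets at an adjusted p of 0.05, the lowest being the outer less the inner Mb, at 28.7 and 25.9 points (permutation p = 0.144, adjusted p = 0.287). The mean replication score was 51.1% in the first set and 56.4% in the later one, and the part of the score in these differences was not tested.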

How the results depend on the processing

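The terminal excess over the interior was reversed with ends of 5 Mb (-4.64 points), in bins without a gene (-10.9) and in the 4 GC groups added after seeing the data (-8.43, -18.5, -14.0 and -8.17), and ranged from -0.52 (without chromosome 16) to 4.40 points (without chromosome 2). Without the replicate block, with both values of a cell treated as unpaired, it was still 2.59 points but lost its call (permutation p = 0.0868), while the p-q and the RNA detection differences kept theirs. The p-q difference lost its call with ends of 5 Mb (-1.36 points, permutation p = 0.0514) and in bins without a gene (-2.55, permutation p = 0.0566), and ranged from -11.4 (without 11) to 1.22 points (without 3). With ends of 1 and 2 Mb it was larger, at -11.1 and -15.7 points (permutation p = 1e-05 for each), so its size depended on the width. The arm difference of the end effect was -4.66 points with ends of 1 Mb and 5.19 with 5 Mb, past the threshold in both cases, and ranged from -4.82 to 9.81 without single chromosomes, past it in 8 of 11 cases. With ends of 1 Mb, 5p, 10p, 10q, 12q and 7q lay above their interior (by 44.8, 37.3, 38.7, 14.3 and 1.43 points) and 6p below it (-16.9). The value of 7q was not called (sign-flip permutation test, adjusted p = 0.765). With ends of 5 Mb 20q lay below its interior (-6.47), 10q and 12q were called lower (-18.6 and -28.2), and 2q and 12p lost their calls (2.47 and 0.63 points). Against its own arm 5p was 8.60 points above and 10p lost its call (-2.77), with 13 ends called higher and 6 lower. The excess in median RNA was 0.0106 with a filter of over 80% of cells (permutation p = 0.118) and 0.0132 in later cells, and without a filter both medians were 0 in all 55 cells and gave no value. The copy-state test called 3 genes of the ends with the 80% filter (67 genes tested) and 3 on residuals on the score. The outer excess over the inner Mb, RNA detection and the test of the terminal excess between the sets of cells kept direction and call in every alternative run, with leave-one-out ranges of 21.4 to 33.8 and 4.09 to 6.90 points for the first pair. The cause of these changes was not tested beyond the bins each alternative keeps. The depth of the DNA libraries per bin is not in the tables and limits each single call, and 11p rests on 23 bins.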

Other observations

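Genes of the ends gave 4.33% ± 0.441 of the spliced TPM of a cell and 3.72% ± 0.535 of its unspliced counts (n = 55 cells), and they were 3.79% of the genes of the table. Genes at 1 TPM or more were slightly fewer in p ends (27.5% ± 1.74) than in q ends (27.9% ± 1.49), a difference of -0.426 ± 1.35 points with p ends lower in 38 of 55 cells (sign-flip permutation test, p = 0.0232). It was -0.675 points in the first set (permutation p = 0.0196) and -0.167 points in the later one (permutation p = 0.48).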
